A study of Mus musculus with 17 samples.

Results

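The lysosome is the acidic organelle in which cells break down proteins, glycans, lipids and worn-out organelles. The 39 genes described here encode 10 lysosomal proteases, the cathepsin inhibitor cystatin C, 11 glycan-degrading enzymes, 7 lipid-degrading enzymes and lipid-binding proteins, 8 membrane proteins, the transcription factor TFEB and progranulin. They were taken by name from the count table, and all 39 were found among its 53379 gene IDs and passed the filter on low counts, which left 17766 genes. The choice used no measured value, but it was made with earlier results of these data known. Ctss, the cathepsin of macrophages, was kept out of the set and is given with the other lysosomal genes.

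The RNA came from glomeruli-enriched kidney cortex of 24-week-old mice of the BTBR strain, 1 library per mouse. The 7 atrasentan mice and the 5 saline mice were ob/ob, homozygous for the Lep ob mutation that removes leptin, which leads to obesity and diabetes on this background. Atrasentan blocks the endothelin A receptor and was added to the drinking water, at 5 mg per kg of body weight per day, over the 6 weeks from 18 weeks of age, and the saline group had saline over the same weeks. The 5 wild type BTBR mice were of the same age, and their labels name no treatment, so wild type differs from saline in genotype and in the saline. All 17 mice share the strain, and the enrichment leaves other cell types of the cortex in the sample.

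Soluble lysosomal enzymes are made in the endoplasmic reticulum, carry a mannose 6-phosphate tag and are sorted to the lysosome by receptors that bind it. TFEB enters the nucleus when nutrient signalling through mTORC1 falls, and binds an E-box motif of the letters CACGTG near the starts of many lysosomal genes. In the kidney, proximal tubule cells take up filtered protein and degrade it in a large lysosomal compartment. Podocytes and macrophages also depend on lysosomes, and inherited loss of several of these genes (Gla in Fabry disease, Ctns in cystinosis, Scarb2) damages the human kidney.

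The E-box was looked for in the RefSeq promoter sequences of build GRCm38.p6, from 250 bases before to 50 bases after each gene's start. Of the 39 genes 35 had a promoter sequence (not Asah1, Npc1, Ctsh and Ctsb). CACGTG, which reads the same on both strands, stood in the promoters of 13 of the 35 genes (37.1%), and of 2187 of all 27025 genes in the table (8.09%). Its longer form TCACGTGA, which contains it, stood in 5 of the 35 (14.3%: Cln3, Ctsa, Ctsd, Gla and Mcoln1) and in 304 of all genes (1.12%). The 27025 genes were not filtered on expression, while the 35 had all passed the filter on low counts. The share over the genes tested alone was not taken. The 13 genes held 21 CACGTG motifs, 14 of them within 100 bases of the start. Lamp1, the most abundant lysosomal membrane protein gene here, held 4. The sequences below show the motif in capitals in 30 bases of the gene's own strand, for genes whose values are described further on.
Mcoln1 (chr8:3500462-3500491, plus strand): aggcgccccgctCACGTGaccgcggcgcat
Ctsd (chr7:142387908-142387937, minus strand): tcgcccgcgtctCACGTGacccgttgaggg
Ctsa (chr2:164833749-164833778, plus strand): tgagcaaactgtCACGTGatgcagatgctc
Lamp1 (chr8:13159088-13159117, plus strand): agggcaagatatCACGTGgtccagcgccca
Lamp1 (chr8:13159134-13159163, plus strand): acgtgaccacatCACGTGcggaacggagcc
Lgmn (chr12:102439124-102439153, minus strand): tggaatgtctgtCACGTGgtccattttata
Sgsh (chr11:119355522-119355551, minus strand): gggcctgccgtgCACGTGaccgtggggagc
Arsa (chr15:89477423-89477452, minus strand): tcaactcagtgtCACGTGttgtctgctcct
Glb1 (chr9:114401018-114401047, plus strand): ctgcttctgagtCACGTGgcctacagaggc
Ctsl (chr13:64370739-64370768, minus strand): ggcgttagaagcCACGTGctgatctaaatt
Counted from the gene's start, the motif of Mcoln1 begins at -45, that of Sgsh at -29 and that of Arsa at -16. The Lgmn motif lies in 1 of its 2 promoter windows. A match of letters is a description and not a measured binding site.

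**Figure D1:**
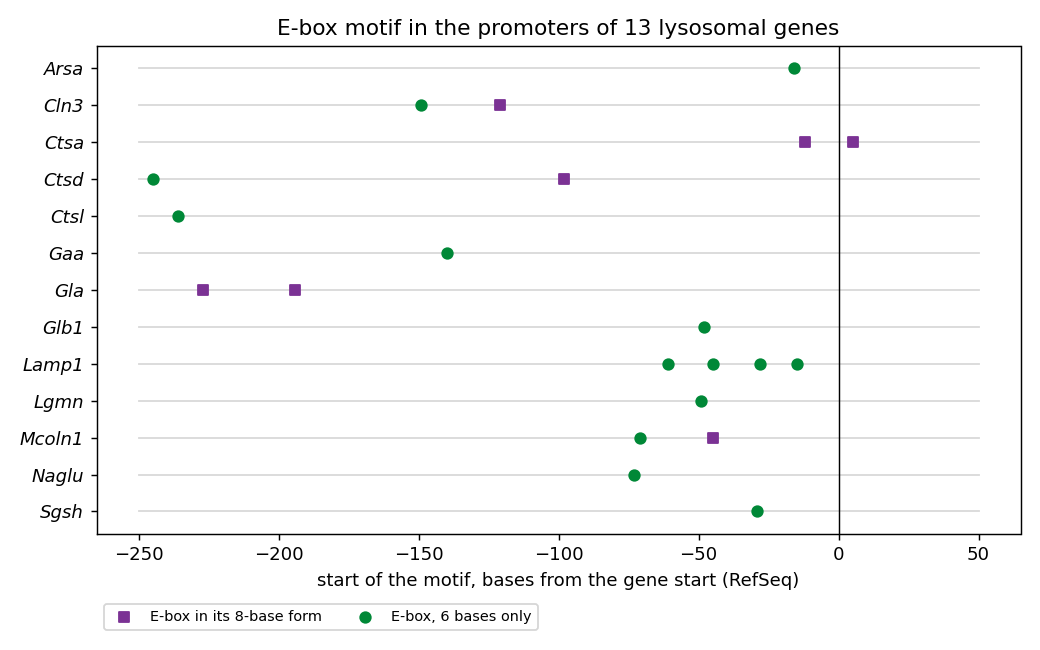
Position of each CACGTG motif in the promoters of the 13 lysosomal genes that hold it, as the distance of its first base from the gene's start in RefSeq (horizontal axis, bases). Squares mark motifs in the longer 8-base form and circles the other motifs; 14 of the 21 lie within 100 bases of the start.

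Per kilobase of exon, the set spanned a wide range of levels. In wild type the highest was Cst3, which encodes cystatin C, at 707 ± 149 RPKM (CPM per kilobase of exon; mean ± SD, n = 5). It was followed by Lamp1 at 353 ± 39.1 RPKM and Psap at 344 ± 46.0 RPKM, which did not differ beyond their spread, and by the proteases Ctsb at 174 ± 18.7 RPKM, Ctsz at 162 ± 19.9 RPKM and Ctsd at 123 ± 12.9 RPKM. The lowest was Npc1, the cholesterol exporter of the lysosomal membrane, at 1.99 ± 0.224 RPKM. Tfeb stood at 9.80 ± 1.83 RPKM. Reads on more than 1 gene were left out of the counts, while the exon length includes bases shared with other genes. The RPKM of genes with shared exons, such as Ctsd (34.4% of its exon length), may therefore be too low. Summed over the 39 genes, the level was 11935 ± 930.2 CPM with atrasentan, 11321 ± 1576 CPM with saline and 9053 ± 616 CPM in the wild type mice (SD, n = 7, 5 and 5). CPM are read counts scaled to a common library size, with TMM factors. As a share of all gene reads, without those factors, the 39 genes made up 1.12% ± 0.0638 with atrasentan, 1.13% ± 0.118 in the saline group and 0.986% ± 0.0416 in wild type mice, so the order of the atrasentan and saline means turned with the scaling and the 2 groups overlapped on both scales. Between atrasentan mice the median coefficient of variation of the 39 genes was 11.9%, where that of all genes tested was 24.2%. Between saline mice the 2 values were 14.5% and 19.3%, and between wild type mice 11.9% and 18.6%. The genes tested were not matched to the 39 on level, so these values do not compare genes of like abundance.

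The libraries held 29161833 to 52528747 gene reads, so counting error is small beside the spread between mice. Reads outside genes made up 3.97% ± 0.849 with atrasentan, 7.34% ± 0.828 in the saline group and 7.85% ± 0.946 in wild type. Every atrasentan library lay below every other (exact permutation, two-sided p = 0.00126 against each group, the smallest that 7 against 5 allows; adjusted p = 0.00189). Marker lists were used to describe the tissue. None of their genes had a mean of 0 in any group, though some, such as Avpr2, were below 1 CPM. At this depth a mean above 0 says little about the enrichment. The summed level of 16 podocyte markers was 2533 to 5708 CPM with atrasentan, 5147 to 10483 CPM in the saline group and 9637 to 15306 CPM in wild type mice. That of 16 proximal tubule markers was 516 to 2869 CPM with atrasentan, 2965 to 14014 CPM in the saline group and 1676 to 3609 CPM in wild type mice, and saline libraries 1 and 3 stood highest. That of 16 macrophage markers was 584 to 1980 CPM with atrasentan, 337 to 593 CPM in the saline group and 333 to 838 CPM in wild type mice. In saline 1 and 3 the proximal tubule sum, 14014 and 13086 CPM, was above the podocyte sum, 5369 and 5547 CPM. In bulk RNA, fewer cells of a type and less RNA per cell cannot be told apart. All p-values of genes below are two-sided, from edgeR's quasi-likelihood test with Benjamini-Hochberg adjustment over the 17766 genes. A gene was called at an adjusted p under 0.05, fold changes are on the log2 scale with their SE, and n = 7, 5 and 5 throughout.

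Against saline, the atrasentan samples had more RNA of 13 lysosomal genes and less of 8, and 18 were not called. Grn, which encodes progranulin, a secreted and lysosomal protein that is cut into granulins, had 438, 545 and 576 CPM (lowest, median and highest of 7) with atrasentan, 367, 375, 359, 336 and 354 CPM in the saline group and 354, 317, 302, 325 and 258 CPM in wild type mice. Every atrasentan library lay above every saline and wild type library. Grn rose by 0.55 ± 0.09 (adjusted p = 0.000379) with atrasentan against saline. Lgmn, which encodes legumain, the asparagine-specific protease that matures cathepsins, had 81.9, 121 and 163 CPM (lowest, median and highest of 7) with atrasentan, 615, 209, 546, 206 and 416 CPM in the saline group and 168, 207, 179, 233 and 161 CPM in wild type mice. All 7 atrasentan libraries lay below all 5 saline libraries, and saline libraries 1, 3 and 5 stood above all wild type libraries. The fold change of Lgmn was -1.72 ± 0.25 (adjusted p = 0.000226), the largest of the set in either direction.

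The 21 calls are 53.8% of the 39 genes, where 33.8% of all genes tested were called. By direction, 33.3% of the set rose where 15.3% of all genes did, and 20.5% fell where 18.5% of all genes did. The median log2 fold change of the set was 0.10, against -0.01 over all genes tested. In 7 genes (Ctso, Ctsz, Gusb, Hexa, Sgsh, Npc2 and Grn) every atrasentan library lay above every saline library, 17.9% of the set where this held for 6.07% of all genes tested. In Lgmn and Mcoln1 every atrasentan library lay below, where this held for 5.76%. The genes that rose had log2 fold changes of 0.25 to 0.71 and those that fell of -0.31 to -1.72. Of the 16 proximal tubule markers 14 fell and none rose in the same comparison, and of the 16 macrophage markers 12 rose and none fell. Of the other lists, 8 of 16 podocyte markers fell, 8 of 12 glomerular endothelium markers and 7 of 10 mesangium markers rose. The mean log2 CPM of the proximal tubule list was 3.46 to 6.44 with atrasentan and 6.54 to 8.78 with saline, and that of the macrophage list 4.13 to 6.11 with atrasentan and 2.85 to 3.67 with saline. Neither pair of ranges overlaps, so these list means and the treatment cannot be told apart. With the mean of the proximal tubule markers as covariate none of the 39 genes was called, where 34 of all genes tested were. With the macrophage mean 1 was called (Lgmn), beside 913 of all genes. With the share of reads outside genes 10 were called, all of them lower, beside 1931 of all genes. Of these 10, 5 were among the 21 calls (Lgmn, Manba, Lipa, Lamp2 and Mcoln1) and 5 were not (Ctsd, Ctsl, Tpp1, Smpd1 and Lamp1). Without saline libraries 1 and 3, 8 genes were called, 6 higher (Ctsz, Gusb, Hexa, Sgsh, Npc2 and Grn) and 2 lower (Lgmn and Manba). Of all genes 2577 were called in that fit.

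In the samples of saline-treated ob/ob mice, 7 lysosomal genes rose against wild type, none fell and 32 were not called. Lipa, which encodes the acid lipase that frees cholesterol and fatty acids from lipoproteins, had 222, 244 and 275 CPM (lowest, median and highest of 7) with atrasentan, 409, 274, 390.3, 217 and 310.0 CPM in the saline group and 157, 209.8, 173, 176 and 142 CPM in wild type mice. The saline libraries all lay above the wild type libraries, and so did the atrasentan libraries, while atrasentan and saline overlapped. Lipa rose by 0.90 ± 0.15 (adjusted p = 0.00448) in saline against wild type. Ctsb, the most abundant cysteine cathepsin of the set, had 1448, 1711 and 2184 CPM (lowest, median and highest of 7) with atrasentan, 1718, 1354, 1604, 1282 and 1555 CPM in the saline group and 882, 1183, 1005, 1102 and 1079 CPM in wild type mice. All saline and all atrasentan libraries lay above all wild type libraries. Ctsb rose by 0.52 ± 0.12 (adjusted p = 0.025) in saline against wild type.

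The other genes that rose in saline were the proteases Ctsd and Lgmn, the glycosidases Man2b1 and Neu1 and the membrane protein Lamp2. The 7 calls are 17.9% of the set, where 5.12% of all genes tested were called, 3.21% higher and 1.91% lower. Of the 39 log2 fold changes 35 were positive and 4 negative, with a median of 0.22 against 0.01 over all genes tested. In 4 genes (Ctsb, Man2b1, Lipa and Lamp2) no saline library overlapped the wild type range, all above, where this held for 3.46% of all genes tested; in none were all saline libraries below, where this held for 3.96%. Saline libraries 1 and 3, with the highest proximal tubule means (the list's mean log2 CPM was 6.54 to 8.78 in saline and 5.91 to 6.99 in wild type), were the highest 2 of the 5 saline libraries in 23 of the 39 genes (59.0%), against 25.8% of all genes tested. These 2 libraries were the lowest 2 in 5 of the 39 genes (12.8%), against 19.6% of all genes tested. The 7 calls came down to 1 without saline library 1, and to 1 without saline 3, wild type 3 or wild type 5. They were 2 without wild type 1, 3 without wild type 2, 4 without saline 5, 12 without saline 2 and 11 without saline 4. Over all genes the calls were 910 with every library, 226 without saline 1 and 216 without saline 3. They were 280 without wild type 3, 220 without wild type 5, 331 without wild type 1 and 319 without wild type 2. Without saline 5, 2 or 4 they were 594, 1225 and 1523. Of the 7, Lipa was called in each of these fits and with libraries 1 and 3 both left out, when it was the only one. Over all genes 54 were called with both left out. With the mean of the proximal tubule markers as covariate none of the 39 was called, where 80 of all genes were. Without the covariate, 5 of the 16 proximal tubule markers themselves rose and 1 fell, and of the 16 podocyte markers 9 fell and none rose.

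Against wild type, the atrasentan samples had more RNA of 20 lysosomal genes and less of 1, Manba, and 18 were not called. Scarb2, which encodes the membrane receptor that carries glucocerebrosidase to the lysosome, had 236, 337 and 478 CPM (lowest, median and highest of 7) with atrasentan, 163, 292, 161, 239 and 215 CPM in the saline group and 173, 156, 134, 120.2 and 126 CPM in wild type mice. Every atrasentan library lay above every wild type library, and the saline libraries overlapped both. The difference from wild type was 1.30 ± 0.18 (adjusted p = 9.46e-05), the largest of the set in this comparison. Tfeb, the transcription factor of lysosomal genes, had 71.9, 81.8 and 97.9 CPM (lowest, median and highest of 7) with atrasentan, 73.0, 76.0, 68.0, 63.5 and 53.8 CPM in the saline group and 71.0, 49.1, 61.4, 49.9 and 46.3 CPM in wild type mice. The lowest atrasentan library stood just above the highest wild type library. Tfeb rose by 0.56 ± 0.12 (adjusted p = 0.00189) against wild type.

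The 21 calls are 53.8% of the set, where 29.2% of all genes tested were called. Of the set 51.3% rose where 14.7% of all genes did, and 2.56% fell where 14.5% did. Positive log2 fold changes were found for 32 genes and negative ones for 7, and the median was 0.33 against -0.01 over all genes tested. Every atrasentan library lay above every wild type library in 10 genes (Ctsa, Ctsb, Ctsd, Gusb, Hexa, Man2b1, Lipa, Scarb2, Tfeb and Grn), where this held for 6.16% of all genes tested. No gene of the set had all atrasentan libraries below, where this held for 7.06%. These CPM carry the TMM factors, which were 0.892 to 0.987 with atrasentan and 1.04 to 1.15 in wild type and so did not overlap. Libraries without overlap were not counted on a scale without those factors. Of the 16 macrophage markers 10 rose and none fell, and all 16 podocyte markers fell. In the same comparison 8 of 16 proximal tubule markers fell and none rose, 7 of 12 glomerular endothelium markers rose and none fell, and of 10 mesangium markers 4 rose and 1 fell. With the macrophage mean as a covariate 3 genes were called (Grn, Scarb2 and Tfeb), beside 951 of all genes. With the share of reads outside genes 2 were called (Ctsl and Mcoln1), both lower and neither among the 21 calls, beside 582 of all genes. With the proximal tubule mean 19 were called, 17 of them among the 21, beside 3697 of all genes. The covariate ranges of atrasentan and wild type do not overlap for the macrophage mean and for reads outside genes, so those measures and the group cannot be told apart.

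**Figure D2:**
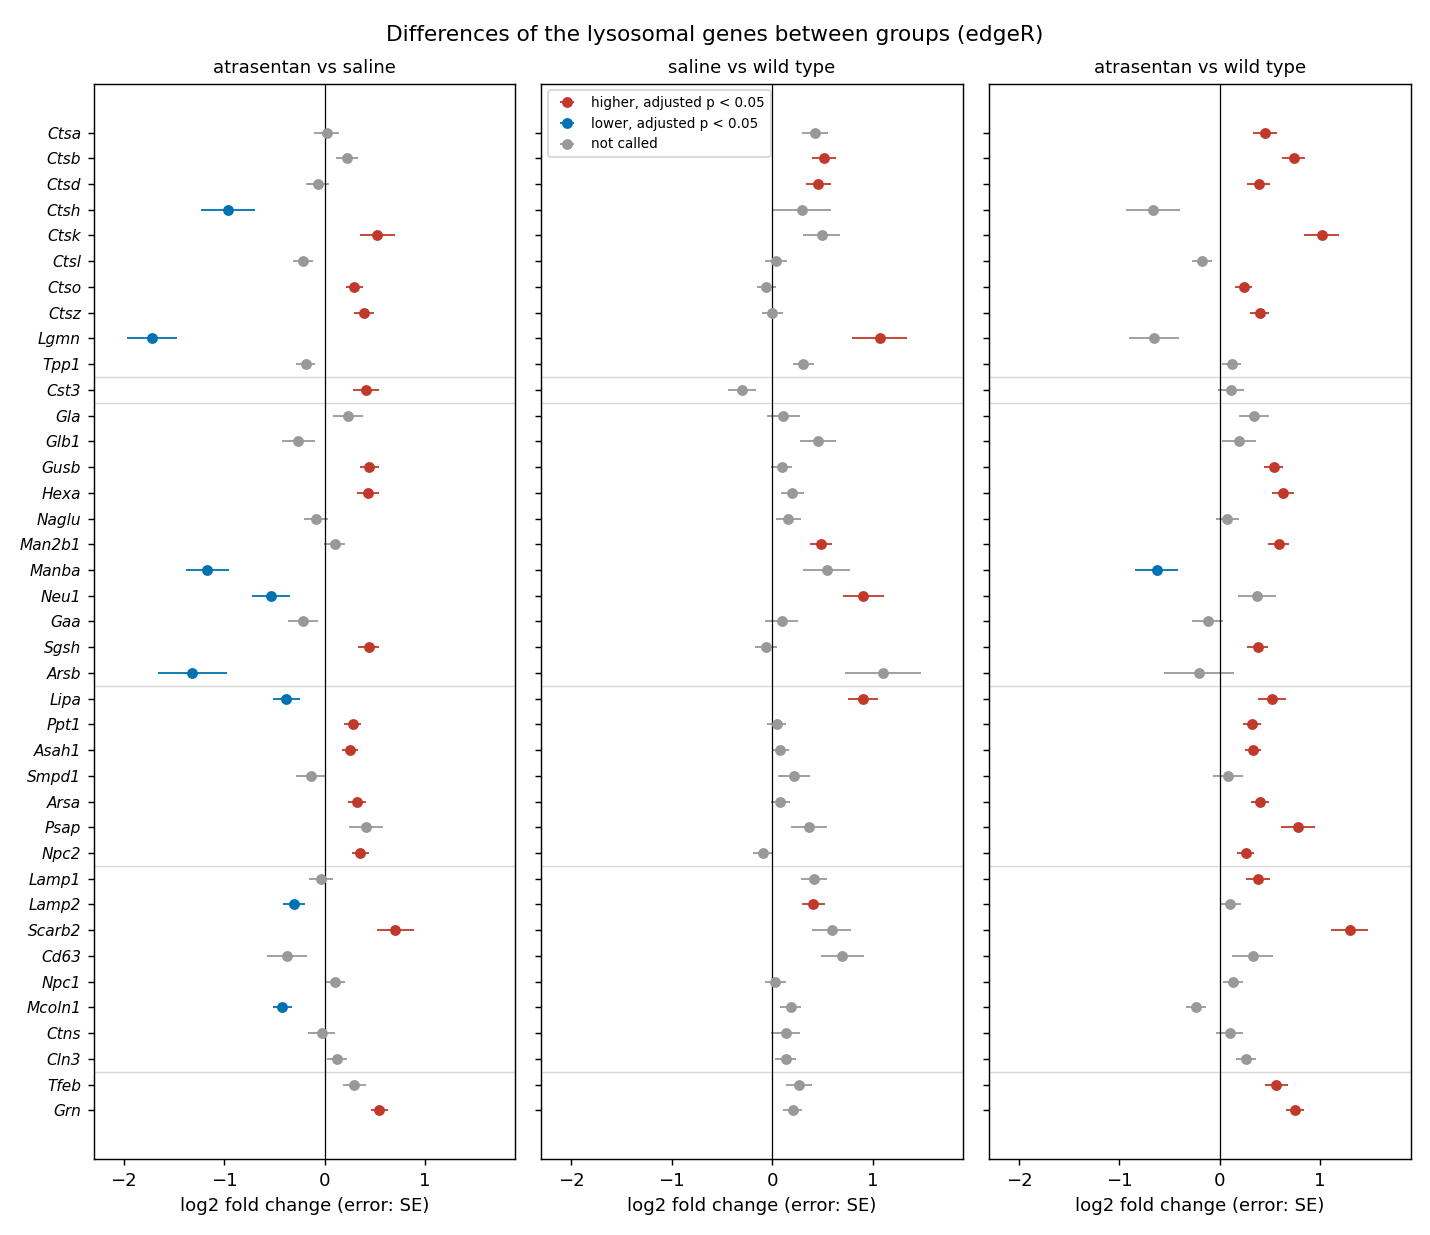
Log2 fold change (points) with its SE (bars) of each of the 39 lysosomal genes in the 3 comparisons, edgeR, ordered by role from proteases at the top to Tfeb and Grn at the bottom. Red marks genes called higher, blue genes called lower and grey genes not called: 13, 8 and 18 for atrasentan against saline, 7, 0 and 32 for saline against wild type, and 20, 1 and 18 for atrasentan against wild type.

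Among the 10 proteases, 3 rose and 2 fell with atrasentan against saline, 3 rose in saline against wild type, and 6 rose with atrasentan against wild type. These are 50%, 30% and 60% of the proteases, where 33.8%, 5.12% and 29.2% of all genes tested were called. Ctsk, the collagen-cutting cathepsin K, had 27.6, 50.2 and 61.4 CPM (lowest, median and highest of 7) with atrasentan, 27.9, 35.8, 28.1, 36.1 and 38.1 CPM in the saline group and 26.5, 32.0, 20.0, 19.5 and 20.1 CPM in wild type mice. It rose by 0.52 ± 0.17 (adjusted p = 0.0267) with atrasentan against saline and by 1.02 ± 0.18 (adjusted p = 0.000429) against wild type, and its saline difference from wild type was 0.49 ± 0.19 (adjusted p = 0.124). The call against saline was lost without atrasentan 3, saline 1 or saline 3 (adjusted p up to 0.074). Ctsz, a carboxypeptidase, rose by 0.39 ± 0.10 (adjusted p = 0.00564) and Ctso, a little studied cysteine protease, by 0.29 ± 0.09 (adjusted p = 0.0148) against saline. Against wild type the 2 rose by 0.40 ± 0.10 (adjusted p = 0.00573) and 0.24 ± 0.09 (adjusted p = 0.046). The Ctso call against wild type was kept only in the fits without atrasentan 1, 2 or 3 or without wild type 2, and was lost on leaving out any other library (adjusted p up to 0.119).

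Ctsh, the aminopeptidase cathepsin H, ran the other way. It averaged 37.8 ± 11.7 CPM with atrasentan and 73.5 ± 37.1 CPM with saline (mean ± SD), and its fold change was -0.96 ± 0.27 (adjusted p = 0.0111); saline libraries 1 and 3 stood at 118 and 105 CPM and libraries 2 and 4 at 36.7 and 38.9 CPM. Lgmn, whose values are given above, had log2 fold changes of -1.72 ± 0.25 (adjusted p = 0.000226) with atrasentan against saline, 1.07 ± 0.27 (adjusted p = 0.0338) in saline against wild type and -0.65 ± 0.25 (adjusted p = 0.0571) with atrasentan against wild type. The first 2 of these comparisons share the saline libraries. Its rise in saline was not called without saline 1, 3 or 5 or wild type 1, 2, 3 or 5 (adjusted p up to 0.108), while its fall with atrasentan was called without any 1 library (adjusted p up to 0.00108).

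Ctsd, the aspartic protease cathepsin D, had 337, 372 and 440.3 CPM (lowest, median and highest of 7) with atrasentan, 511, 339, 448, 318 and 364 CPM in the saline group and 286, 331, 304, 259 and 260.4 CPM in wild type mice. Atrasentan and saline libraries overlapped, and every atrasentan library lay above every wild type library. Ctsd rose in saline by 0.46 ± 0.12 (adjusted p = 0.0429) and with atrasentan by 0.39 ± 0.12 (adjusted p = 0.0183) against wild type, and differed by -0.07 ± 0.12 (adjusted p = 0.662) between atrasentan and saline. Its saline call was lost without atrasentan 1 or 3, saline 1, 3 or 5 or any 1 wild type library (adjusted p up to 0.127), and that with atrasentan without wild type 5 (adjusted p = 0.0511). Another gene model on the same strand overlaps 34.4% of its exon length. Ctsb, given above, rose by 0.74 ± 0.11 (adjusted p = 0.000166) with atrasentan against wild type and differed from saline by 0.22 ± 0.11 (adjusted p = 0.134); its rise in saline was lost without saline 1 or 3 or wild type 1, 3 or 5 (adjusted p up to 0.073).

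Ctsl, the endopeptidase cathepsin L, had 477, 565 and 636 CPM (lowest, median and highest of 7) with atrasentan, 800.0, 554, 675, 576 and 653 CPM in the saline group and 641, 719.8, 679.8, 557 and 581 CPM in wild type mice. The 3 groups overlapped and no comparison was called: -0.21 ± 0.10 (adjusted p = 0.107) with atrasentan against saline, 0.04 ± 0.11 (adjusted p = 0.896) in saline against wild type and -0.18 ± 0.10 (adjusted p = 0.195) with atrasentan against wild type. An antisense gene overlaps 26.8% of the Ctsl exons, and without strand their reads cannot be told apart. Reads assigned to more than 1 gene were left out, so the Ctsl counts may be too low. Ctsa, the carboxypeptidase that holds Neu1 and Glb1 in a complex, rose against wild type by 0.45 ± 0.12 (adjusted p = 0.0106) with atrasentan and had 0.43 ± 0.13 (adjusted p = 0.0628) in saline. Tpp1, a tripeptidyl peptidase, was called in no comparison (-0.19 with atrasentan against saline, 0.31 in saline and 0.12 with atrasentan against wild type).

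Cst3, the secreted inhibitor of the cysteine cathepsins, had 801, 906 and 1158 CPM (lowest, median and highest of 7) with atrasentan, 676, 760.0, 628, 762 and 807 CPM in the saline group and 779, 1161, 815, 703 and 1021 CPM in wild type mice. The lowest atrasentan library, at 801 CPM, stood just under the highest saline library, at 807 CPM, and the wild type range overlapped both. Cst3 rose by 0.41 ± 0.13 (adjusted p = 0.0221) with atrasentan against saline, a call lost without saline 1 or saline 3 (adjusted p up to 0.0657). Its differences from wild type were 0.11 ± 0.13 (adjusted p = 0.551) with atrasentan and -0.30 ± 0.14 (adjusted p = 0.22) in saline.

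Of the 11 glycan enzymes 3 rose and 3 fell with atrasentan against saline, 2 rose in saline against wild type, and 4 rose and 1 fell with atrasentan against wild type. The calls make up 54.5%, 18.2% and 45.5% of these enzymes, against 33.8%, 5.12% and 29.2% of all genes tested. Gusb, the β-glucuronidase that acts on glycosaminoglycans, had 122, 145 and 166 CPM (lowest, median and highest of 7) with atrasentan, 94.3, 108, 101, 116 and 107 CPM in the saline group and 97.6, 106, 85.0, 104 and 101 CPM in wild type mice. All atrasentan libraries lay above all others. Gusb rose by 0.44 ± 0.09 (adjusted p = 0.00223) against saline and by 0.54 ± 0.09 (adjusted p = 0.000503) against wild type. Hexa, the α subunit of β-hexosaminidase, had 132, 169 and 197 CPM (lowest, median and highest of 7) with atrasentan, 122, 118, 127, 119.8 and 126 CPM in the saline group and 120.2, 125, 106, 93.5 and 87.8 CPM in wild type mice. Here too every atrasentan library was above every other library, and the rise was 0.43 ± 0.11 (adjusted p = 0.00736) against saline and 0.63 ± 0.11 (adjusted p = 0.000508) against wild type. Sgsh, the sulfamidase of heparan sulfate whose promoter motif is printed above, had 30.6, 38.4 and 44.4 CPM (lowest, median and highest of 7) with atrasentan, 26.2, 25.2, 28.5, 29.5 and 29.8 CPM in the saline group and 32.7, 24.3, 25.6, 33.8 and 28.7 CPM in wild type mice. Its atrasentan libraries cleared the saline range and overlapped the wild type range. Sgsh rose by 0.44 ± 0.10 (adjusted p = 0.00447) against saline and by 0.38 ± 0.10 (adjusted p = 0.0118) against wild type.

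Manba, the β-mannosidase, fell with atrasentan against saline and against wild type, 2 comparisons that share the atrasentan libraries. It had 16.7, 21.1 and 33.7 CPM (lowest, median and highest of 7) with atrasentan, 71.5, 29.8, 68.1, 35.3 and 50.4 CPM in the saline group and 31.9, 32.4, 44.1, 37.0 and 29.9 CPM in wild type mice. The atrasentan and saline ranges met at 33.7 and 29.8 CPM, and saline libraries 1 and 3 were again the highest. The log2 fold change was -1.17 ± 0.21 (adjusted p = 0.000831) with atrasentan against saline, -0.63 ± 0.22 (adjusted p = 0.0359) with atrasentan against wild type and 0.54 ± 0.23 (adjusted p = 0.183) in saline against wild type. The call against wild type was lost without atrasentan 1, 2, 3, 4 or 7 or wild type 3 or 4 (adjusted p up to 0.105).

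Neu1, the sialidase, had 150.4, 204 and 276 CPM (lowest, median and highest of 7) with atrasentan, 410.0, 237, 421, 172 and 259 CPM in the saline group and 155, 174, 160.3, 178 and 133 CPM in wild type mice. Saline libraries 1 and 3 lay above all others, and saline 4 lay within the wild type range. Neu1 had a log2 fold change of -0.54 ± 0.19 (adjusted p = 0.0354) with atrasentan against saline, of 0.91 ± 0.21 (adjusted p = 0.023) in saline against wild type and of 0.37 ± 0.19 (adjusted p = 0.153) with atrasentan against wild type. The first call was lost without atrasentan 3, 4, 5 or 7 or saline 1 or 3 (adjusted p up to 0.141), and the second without saline 1 or 3 or wild type 1, 3 or 5 (adjusted p up to 0.0736). Man2b1, the α-mannosidase, had 148, 184 and 202 CPM (lowest, median and highest of 7) with atrasentan, 183, 154, 186, 140.3 and 159 CPM in the saline group and 126, 101, 113, 137 and 109 CPM in wild type mice. Both ob/ob groups lay wholly above wild type and overlapped each other. Man2b1 rose by 0.49 ± 0.11 (adjusted p = 0.0242) in saline and by 0.59 ± 0.11 (adjusted p = 0.000551) with atrasentan against wild type, the first not called without saline 1 or 3 or wild type 2, 3 or 5 (adjusted p up to 0.0761), and the difference between atrasentan and saline was 0.10 ± 0.10 (adjusted p = 0.469).

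Arsb, the sulfatase of dermatan and chondroitin sulfate, averaged 11.4 ± 4.72 CPM with atrasentan and 28.3 ± 17.3 CPM with saline and had a fold change of -1.32 ± 0.34 (adjusted p = 0.00793); saline 1 and 3 stood at 47.5 and 45.9 CPM and the other 3 saline libraries at 12.7 to 22.7 CPM. A long noncoding RNA on the opposite strand overlaps 32.3% of its exons. The remaining glycan enzymes, Gla (α-galactosidase A), Glb1 (β-galactosidase), Naglu (of heparan sulfate breakdown) and Gaa (the glycogen-degrading α-glucosidase), were called in no comparison. With atrasentan against saline their log2 fold changes were 0.23, -0.26, -0.08 and -0.21 in that order.

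**Figure D3:**
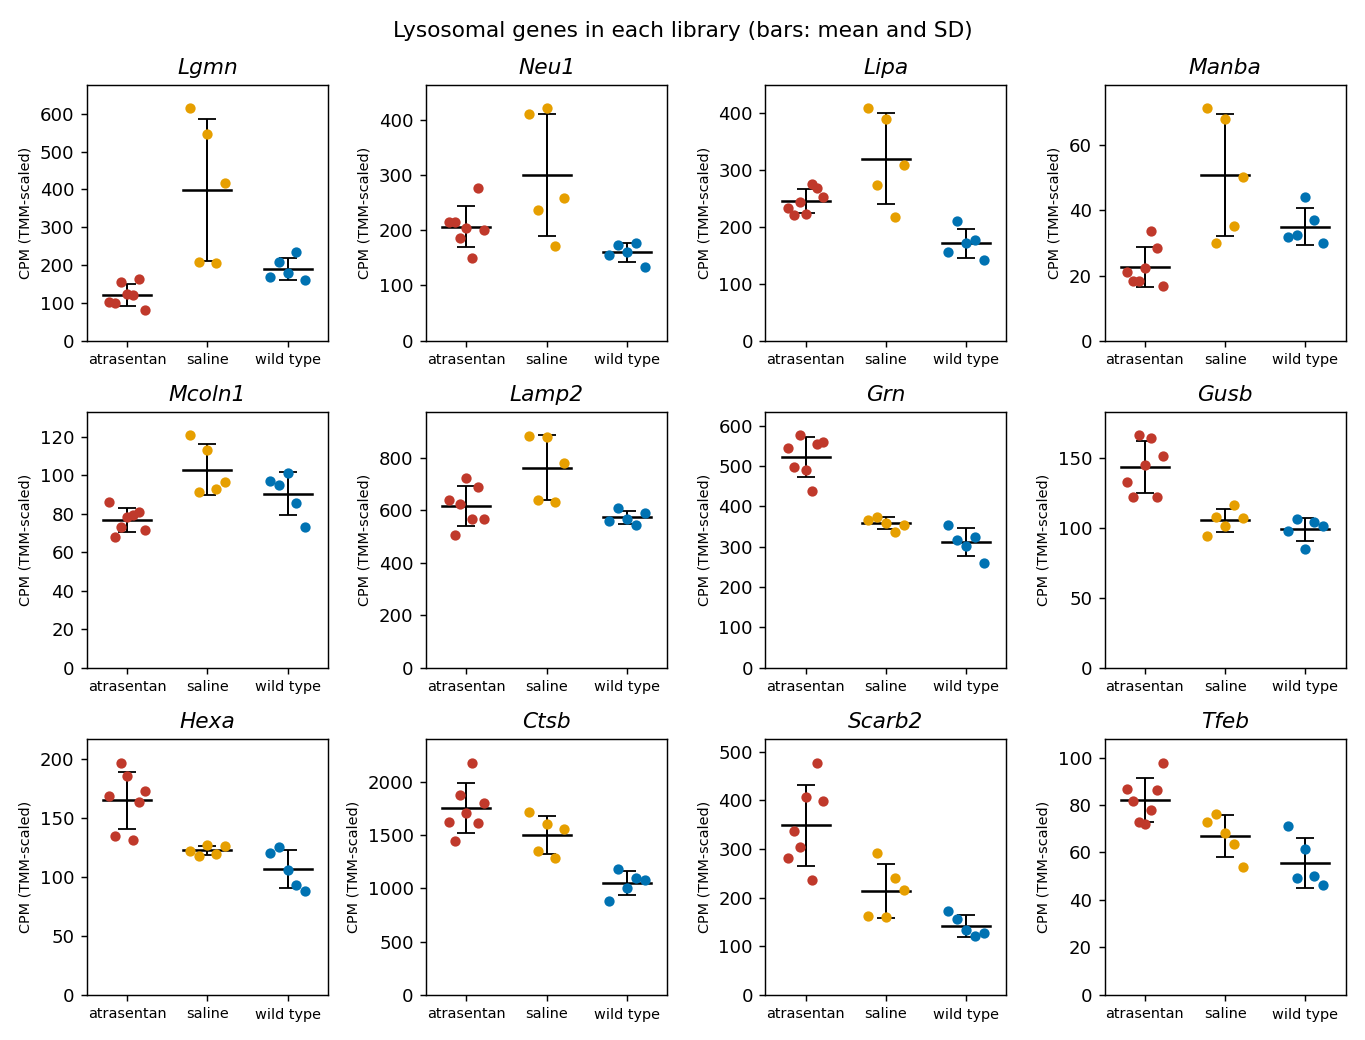
CPM of 12 lysosomal genes in each library (points), with the mean and SD of each group (bars), for 7 atrasentan, 5 saline and 5 wild type mice. Grn, Gusb and Hexa have all atrasentan points above all others, and Lgmn has all atrasentan points below all saline points. Saline libraries 1 and 3 are the leftmost and the middle point of the saline group. They are its highest 2 in Lgmn, Neu1, Lipa, Manba, Mcoln1, Lamp2 and Ctsb, and its lowest 2 in Scarb2 and Gusb.

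Of the 7 lipid genes 4 rose and 1 fell with atrasentan against saline, 1 rose in saline, and 6 rose with atrasentan against wild type. The calls are 71.4%, 14.3% and 85.7% of the 7, against 33.8%, 5.12% and 29.2% of all genes tested. The lipid genes that rose against saline were Npc2, the soluble cholesterol carrier, by 0.36 ± 0.09 (adjusted p = 0.00464), Arsa, the sulfatide sulfatase, by 0.32 ± 0.09 (adjusted p = 0.0128), Ppt1, which removes palmitate from proteins, by 0.28 ± 0.09 (adjusted p = 0.021), and Asah1, the acid ceramidase, by 0.25 ± 0.08 (adjusted p = 0.0205). The Ppt1 call was lost without saline 2 (adjusted p = 0.0514) and the Asah1 call without saline 3 (adjusted p = 0.0591). Against wild type the 4 rose by 0.26, 0.40, 0.32 and 0.33 in the same order (adjusted p of at most 0.0282), and the Npc2 call was lost without atrasentan 3 or 7 or wild type 1, 3 or 4 (adjusted p up to 0.081).

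Lipa was lower with atrasentan than with saline, -0.38 ± 0.14 (adjusted p = 0.0376), and higher with atrasentan than in wild type, 0.52 ± 0.14 (adjusted p = 0.0096). The call against saline was lost without atrasentan 1, 2, 3, 4 or 7 or saline 1, 3 or 5 (adjusted p up to 0.127), and the call against wild type was kept without any 1 library (adjusted p up to 0.0323). Psap, the precursor of the saposins that present sphingolipids to their hydrolases, averaged 1620 ± 424 CPM with atrasentan, 1216 ± 148 CPM in the saline group and 944 ± 126 CPM in wild type mice. It rose by 0.78 ± 0.17 (adjusted p = 0.00267) against wild type and differed by 0.41 ± 0.17 (adjusted p = 0.0668) between atrasentan and saline, a difference that was called without atrasentan 2 or without atrasentan 5 (adjusted p of 0.0268 and 0.0135). Smpd1, the acid sphingomyelinase, was called in no comparison, with -0.14, 0.22 and 0.08 for atrasentan against saline, saline against wild type and atrasentan against wild type.

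Among the 8 membrane proteins, 1 rose and 2 fell with atrasentan against saline, 1 rose in saline, and 2 rose with atrasentan against wild type. Called were 37.5%, 12.5% and 25% of the 8, against 33.8%, 5.12% and 29.2% of all genes tested. Lamp2, a glycoprotein of the lysosomal coat needed for fusion with autophagosomes and for chaperone-mediated autophagy, had 507, 625 and 722 CPM (lowest, median and highest of 7) with atrasentan, 882, 640.4, 879, 630.0 and 780.2 CPM in the saline group and 561, 609, 565, 544 and 588 CPM in wild type mice. Every saline library lay above every wild type library, and the atrasentan libraries overlapped both groups. Its fold change was -0.31 ± 0.11 (adjusted p = 0.0352) with atrasentan against saline, 0.41 ± 0.12 (adjusted p = 0.0485) in saline against wild type and 0.11 ± 0.11 (adjusted p = 0.49) with atrasentan against wild type. The first call was lost without atrasentan 2, 5 or 7 or saline 1, 3 or 5 (adjusted p up to 0.116), and the second without atrasentan 1, 3 or 7, saline 1, 3 or 5 or any 1 wild type library (adjusted p up to 0.146).

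Mcoln1, the calcium-releasing channel TRPML of the lysosomal membrane, had 67.9, 78.1 and 86.2 CPM (lowest, median and highest of 7) with atrasentan, 121, 91.2, 113, 92.9 and 96.4 CPM in the saline group and 97.3, 94.9, 101, 85.5 and 73.1 CPM in wild type mice. All atrasentan libraries lay below all saline libraries and overlapped wild type. Mcoln1 had a fold change of -0.42 ± 0.10 (adjusted p = 0.00337) with atrasentan against saline, -0.24 ± 0.10 (adjusted p = 0.0731) with atrasentan against wild type and 0.19 ± 0.10 (adjusted p = 0.325) in saline. Scarb2, given above, rose by 0.71 ± 0.18 (adjusted p = 0.00676) with atrasentan against saline, and its saline difference from wild type was 0.59 ± 0.19 (adjusted p = 0.0767). With saline 1 and 3 left out, the lowest 2 saline libraries in Scarb2, its call against saline was lost. Lamp1, the partner of Lamp2 in the lysosomal coat, had 1077, 1260.0 and 1347 CPM (lowest, median and highest of 7) with atrasentan, 1633, 1002, 1431, 1039 and 1210.2 CPM in the saline group and 937, 1115, 946, 889 and 837 CPM in wild type mice. The 3 groups overlapped, with saline 1 and 3 highest of all. It rose by 0.38 ± 0.12 (adjusted p = 0.0223) with atrasentan against wild type, a call lost without wild type 4 or 5 (adjusted p up to 0.0623), and its other fold changes were -0.04 ± 0.12 (adjusted p = 0.84) with atrasentan against saline and 0.42 ± 0.13 (adjusted p = 0.064) in saline.

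The other membrane genes were called in no comparison. They are Cd63, a tetraspanin of late endosomes, Npc1, Ctns, the cystine exporter, and Cln3, a protein whose loss causes a neuronal storage disease. With atrasentan against saline their log2 fold changes were -0.37, 0.10, -0.03 and 0.12 in that order. Cd63 had the widest gap of the 4 in saline against wild type, 0.70 ± 0.22 (adjusted p = 0.0662), with saline libraries 1 and 3 at 415 and 358 CPM and libraries 2 and 4 at 184 and 169 CPM.

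Both Tfeb and Grn rose with atrasentan against wild type. Grn rose there by 0.75 ± 0.09 (adjusted p = 2.32e-05), the smallest adjusted p of the set, and its saline difference from wild type was 0.20 ± 0.09 (adjusted p = 0.22). Tfeb differed from saline by 0.30 ± 0.12 (adjusted p = 0.0593), which was called without atrasentan 4, saline 2 or wild type 1 (adjusted p of 0.0493, 0.0418 and 0.0389), and its saline difference from wild type was 0.27 ± 0.13 (adjusted p = 0.229). Of the 13 genes with a CACGTG promoter motif, 2 rose and 2 fell with atrasentan against saline (median log2 fold change -0.07), and of the 22 without it 10 rose and 5 fell (median 0.29). With atrasentan against wild type 5 of the 13 rose (median 0.26), and 13 of the 22 rose and 1 fell (median 0.35). In saline against wild type 2 of the 13 rose (median 0.16), and 4 of the 22 rose (median 0.29). Over all genes tested 15.3% rose and 18.5% fell with atrasentan against saline, and 14.7% rose and 14.5% fell with atrasentan against wild type. In saline against wild type 3.21% rose and 1.91% fell. The difference between genes with and without the motif was not tested.

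Over the 17 libraries, the 3 with the most proximal tubule RNA (saline 3, 1 and 5, list means of 8.78, 8.76 and 7.76 log2 CPM) also held the most Lgmn and Manba RNA. Atrasentan library 7, with the least (3.46), held the least Lgmn and Manba. The 7 atrasentan libraries, which had the 7 highest means of the macrophage list on the log2 CPM scale, were also the 7 highest in Grn and in Hexa. In the summed CPM of that list atrasentan and wild type overlapped. Atrasentan 3, the highest in macrophage markers (6.11), was the highest of all 17 in both. Atrasentan 7 and 6, with macrophage means of 4.23 and 4.19, held 559 and 555 CPM of Grn. Atrasentan 1 and 4, with means of 4.97 and 4.95, held 545 and 490 CPM. The summed mesangium list also had its 7 highest values in the atrasentan libraries, 8943 to 15063 CPM. Its highest value was 7853 CPM in saline and 8905 CPM in wild type. The part of these cell types in the differences of the lysosomal genes was not tested.

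**Figure D4:**
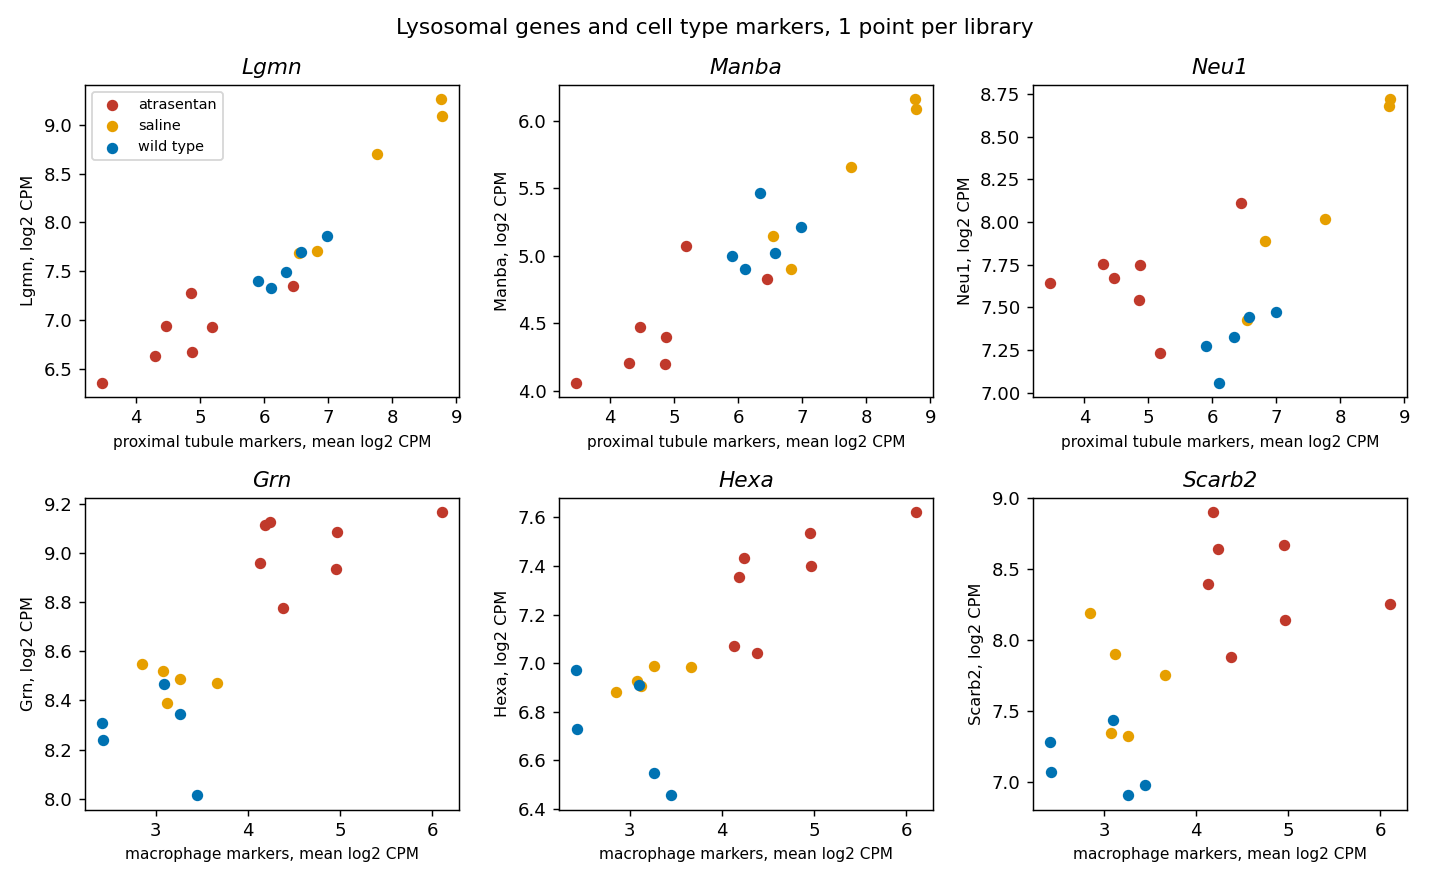
Log2 CPM of 6 lysosomal genes (vertical axes) against the mean log2 CPM of 16 proximal tubule markers (top row) or 16 macrophage markers (bottom row), 1 point per library, coloured by group. Saline 3, 1 and 5 are highest in Lgmn and Manba and in proximal tubule markers, and the 7 atrasentan libraries are the highest in Grn, Hexa and the mean of the macrophage markers. In Neu1 saline 3 and 1 are highest, and atrasentan 6 stands above saline 5. In Scarb2 saline 2 stands above atrasentan 1 and 5.

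Lysosomal genes outside the set were counted from further lists, to be read against the 33.8%, 5.12% and 29.2% of all genes called with atrasentan against saline, in saline against wild type and with atrasentan against wild type. Of 31 other lysosomal hydrolases 8 rose and 4 fell with atrasentan against saline (median log2 fold change 0.13), 2 rose in saline against wild type (median 0.19), and 14 rose and 1 fell with atrasentan against wild type (median 0.35). These calls are 38.7%, 6.45% and 48.4% of the list; with atrasentan against saline 25.8% of it rose, against 15.3% of all genes, and 12.9% fell, against 18.5%. Naaa, which cleaves acylethanolamides, rose by 0.79 ± 0.14 (adjusted p = 0.00058) with atrasentan against saline, with 25.9 ± 4.67 CPM with atrasentan and 15.0 ± 2.08 CPM with saline, and Plbd2, a phospholipase B-like protein, by 0.47 ± 0.08 (adjusted p = 0.000723). Plbd2 had the smallest adjusted p of the list against wild type, 0.68 ± 0.08 (adjusted p = 3.67e-05). Ctss, the macrophage cathepsin S, rose by 1.74 ± 0.31 (adjusted p = 0.000729), with 95.5 ± 51.8 CPM with atrasentan and 28.6 ± 6.06 CPM with saline; it is also 1 of the 16 macrophage markers. In saline Fuca1, the fucosidase, rose by 0.64 ± 0.16 (adjusted p = 0.0287) and Scpep1, a serine carboxypeptidase, by 0.55 ± 0.14 (adjusted p = 0.0318) against wild type. Of 25 other lysosomal membrane genes 6 rose and 5 fell with atrasentan against saline (median 0.00), none was called in saline (edgeR; 5 at an unadjusted p under 0.05), and 7 rose and 3 fell with atrasentan against wild type (median 0.15). These calls are 44.0% of the list against saline and 40.0% against wild type. The 5 of 25 at an unadjusted p stand beside 3825 of all 17766 genes tested (edgeR, saline against wild type). Laptm5, a lysosomal membrane protein of leukocytes that is also 1 of the 16 macrophage markers, had the smallest adjusted p and rose by 1.25 ± 0.31 (adjusted p = 0.00527) with atrasentan against saline, with 87.3 ± 32.7 CPM with atrasentan and 36.8 ± 10.4 CPM with saline. Laptm4a, which encodes a small membrane protein of late endosomes and lysosomes, rose by 0.49 ± 0.12 (adjusted p = 0.00533) with atrasentan against saline, and Tpcn1, a 2-pore cation channel, had a fold change of -0.69 ± 0.17 (adjusted p = 0.00537). Slc38a9, an amino acid transporter and arginine sensor of the lysosome, had a fold change of -0.50 ± 0.10 (adjusted p = 0.00105) with atrasentan against wild type.

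Of 19 genes of enzyme tagging and sorting 3 rose and 2 fell with atrasentan against saline, none was called in saline (edgeR; 4 at an unadjusted p under 0.05), and 5 rose with atrasentan against wild type. The calls are 26.3% of the list in both atrasentan comparisons, below the share over all genes. The 4 of 19 at an unadjusted p under 0.05 stand beside 3825 of all 17766 genes tested (edgeR, saline against wild type). Sumf1, which activates the sulfatases, rose by 0.38 ± 0.08 (adjusted p = 0.00225) against saline and by 0.46 ± 0.08 (adjusted p = 0.000494) against wild type. Of 17 subunits of the proton pump that acidifies the lysosome 1 rose and 3 fell with atrasentan against saline, 2 rose in saline, and 3 rose and 1 fell with atrasentan against wild type. These are 23.5%, 11.8% and 23.5% of the list, below the share over all genes in both atrasentan comparisons. Atp6v1b2, a subunit of the pump's cytosolic head, had 115 ± 17.5 CPM with atrasentan and 250.0 ± 108 CPM with saline, a fold change of -1.12 ± 0.20 (adjusted p = 0.000646), and rose by 0.92 ± 0.22 (adjusted p = 0.0261) in saline against wild type. Atp6v0c, a subunit of the pump's membrane ring, had the smallest adjusted p with atrasentan against wild type, -1.68 ± 0.30 (adjusted p = 0.00061). Of 20 autophagy genes 7 rose and none fell with atrasentan against saline (median 0.12), 1 rose and 1 fell in saline (median 0.06), and 6 rose and 1 fell with atrasentan against wild type (median 0.18). These are 35.0% of the list in both atrasentan comparisons and 10% in saline against wild type. Wipi1, a phosphoinositide-binding protein of forming autophagosomes, rose by 0.57 ± 0.11 (adjusted p = 0.00129) against saline and by 1.07 ± 0.11 (adjusted p = 1.08e-05) against wild type, and Sqstm1, the cargo receptor p62, by 0.45 ± 0.10 (adjusted p = 0.00271) against saline. Optn, an autophagy receptor, had a fold change of -0.42 ± 0.10 (adjusted p = 0.0242) in saline against wild type. Of 16 genes of the TFEB family and of nutrient sensing at the lysosome 1 rose and 1 fell with atrasentan against saline, 12.5% of the list, and 1 rose in each of the comparisons with wild type, 6.25% of the list. Fnip1, a folliculin-interacting protein, had a fold change of -0.43 ± 0.09 (adjusted p = 0.00275) with atrasentan against saline. Tfec, the family member known from macrophages, rose by 1.08 ± 0.25 (adjusted p = 0.0241) in saline and by 0.96 ± 0.23 (adjusted p = 0.00551) with atrasentan against wild type.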

How the data were processed

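Poly(A) RNA of the glomeruli-enriched cortex of 17 mice was sequenced single-end with a kit that does not mark strand, per the labels' protocols. The authors deposited raw read counts for 53379 gene IDs. The authors also deposited a normalized table on a log2 scale for 17338 genes, made by a transform the sources used here do not give; it served for 1 alternative only. Build GRCm38 and the tools STAR, HTSeq, DESeq2, edgeR and limma are named, without versions or roles, per the submitters' processing notes. Whether the counting used strand is not stated, and reads shared by a gene and an overlapping antisense gene cannot be told apart. Of the 39 genes 15 share exon bases with another gene, 8 of them over 10% of their exon length (Arsa, Arsb, Ctsa, Ctsb, Ctsd, Ctsl, Hexa and Sgsh). The 5 HTSeq lines that name no gene stayed out of library sizes and tests; reads outside genes made up 3.17% to 8.58% of a library, reads with several alignments 23.4% to 31.8% and reads on more than 1 gene 2.93% to 3.37%. Symbols, exon lengths and coordinates came from GENCODE M21 (GRCm38), promoter sequences from RefSeq (GRCm38.p6).

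Counts were tested with edgeR 4.0.16 (R 4.3.3) as a quasi-likelihood F test after filterByExpr by group and TMM scaling, with all 17 libraries in 1 fit and Benjamini-Hochberg adjustment over 17766 genes. The SE is the size of the log2 fold change divided by the square root of F. CPM use TMM-scaled library sizes, and RPKM divide them by the union exon length. Marker lists were averaged on the log2 CPM scale (prior count 2). Alternatives were other scalings, DESeq2 1.42.0, limma 3.58.1 (voom, and trend on the log2 table), no low-count filter, fits of 2 groups alone, 3 covariates and left-out libraries. Gene reads per library ran from 29161833 to 52528747.

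The members and all lists were chosen with earlier results of these data known. Each saline and wild type library's value, with the lowest, median and highest of the 7 atrasentan libraries, is given for the 6 genes with the smallest adjusted p in each comparison, for Tfeb, Lamp1, Lamp2, Ctsd, Ctsb, Ctsl, Cst3 and Lgmn, and for genes called in opposite directions in 2 comparisons. Of each other lysosomal list, 1 to 3 of the 3 genes of smallest adjusted p are named in each comparison with a call, the first of them always. Other members are named with means or fold changes. Library numbers follow the order of deposit and pair nothing; the labels give 1 batch for all. The library names run in the order of the groups, so the order of preparation and the group cannot be told apart. The genotype labels of saline and wild type carry a suffix, d30, that atrasentan's do not, and its meaning is not stated. No 2 libraries of a group agreed within sampling noise (chi-square per degree of freedom 24.0 to 247 over 41 pairs).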

Additional observations from a re-analysis of the deposited data

Results flagged for a closer look

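In 120 sets of values (each gene in each of the 3 groups, and the summed level of the set), 5 had 1 library farther from the rest than Dixon's criterion allows, and chance gives about 1 in 20. Ctsa stood at 466 CPM in atrasentan 3, the library with the most macrophage RNA, against 401 CPM in the next highest atrasentan library. Cln3 stood at 48.1 CPM in the same library, against 43.8 CPM in the next. Atrasentan 2 was lowest in Gla, at 10.2 CPM with the next at 15.4 CPM, and in Asah1, at 189 CPM with the next at 224 CPM. Without it Gla was called higher with atrasentan than in wild type, by 0.42 (edgeR adjusted p = 0.0241), which it was not over all libraries. Ppt1 stood at 283 CPM in wild type 2, against 234 CPM in the next highest wild type library, and its calls did not depend on that library.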

How the results depend on the processing

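No paired analysis was possible because the labels number no replicates. With RLE or upper-quartile scaling, DESeq2, limma-voom, the deposited log2 table, no low-count filter or fits of 2 groups alone, no call of a lysosomal gene changed direction. In saline against wild type DESeq2 called 13 lysosomal genes (1991 of all genes), limma-voom 4 (550 of all genes) and the fit of 2 groups alone 1430 of all genes. With upper-quartile scaling 18 lysosomal genes rose and 5 fell with atrasentan against wild type; of all genes called there 37.6% were higher, against 50.5% with TMM, and 51.0% against 62.6% in saline against wild type. The median of all genes in DESeq2 was -0.12 with atrasentan against saline. The proximal tubule covariate gave 0 lysosomal genes with atrasentan against saline and 0 in saline against wild type (34 and 80 of all genes). It turned 6 calls with atrasentan against saline: Ctsh to 0.66, Arsb to 0.59, Neu1 to 0.39, Lipa to 0.24, Lamp2 to 0.11 and Manba to 0.026. The macrophage covariate gave 1 with atrasentan against saline and 3 against wild type (913 and 951 of all genes). The covariate of reads outside genes gave 10 calls with atrasentan against saline, 3 in saline and 2 with atrasentan against wild type (1931, 409 and 582 of all genes), of which 5, 3 and 0 were among the 21, 7 and 21 calls without it. It turned Ppt1 to -0.086 and Asah1 to -0.076 with atrasentan against saline. Against wild type it turned Lamp1 to -0.27, Ctsd to -0.22, Ppt1 to -0.094, Lipa to -0.078, Asah1 to -0.041 and Ctso to -0.038. None of these turned values was called. Without saline 1 and 3 there were 8 calls with atrasentan against saline and 1 in saline (2577 and 54 of all genes). Without atrasentan 2 and 5 there were 19 and 7 lysosomal calls in these 2 comparisons and 20 with atrasentan against wild type (6317, 1173 and 5916 of all genes). Leaving out 1 library gave 15 to 22, 1 to 12 and 17 to 23 lysosomal calls in atrasentan against saline, saline against wild type and atrasentan against wild type (4361 to 6338, 216 to 1523 and 4092 to 5622 of all genes); 14 of 21, 1 of 7 and 16 of 21 calls held in all 17 such fits. The cause of these changes was not tested. Depth limits little here, since Arsb, among the lowest per kilobase, still averaged 11.4 CPM with atrasentan.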
